A study of Mus with 18 samples.

Results

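The gamma crystallins described here were 6 mouse genes, Cryga (ENSMUSG00000044429), Crygb (ENSMUSG00000073658), Crygc (ENSMUSG00000025952), Crygd (ENSMUSG00000067299), Cryge (ENSMUSG00000070870) and Crygs (ENSMUSG00000033501), of 55416 gene IDs counted in each library. The family was chosen by its fall at 6 h after lens injury in these libraries, so the values at 6 h against 0 h are given as a description with no test. The libraries measured RNA of mouse lens capsules with their attached lens epithelial cells (LECs) by RNA sequencing. They came from wild type mice (WT), Egr1KO mice that lack Egr1 in the whole body, and FosBcKO mice that lack Fosb in the lens. Capsules were taken at 0 h or at 6 h post cataract surgery (PCS), in which the fiber cell mass is lifted out of the lens and the capsule stays in the eye. Each of the 6 groups had 3 libraries, each library pooled 5 capsules, and the counts per library ranged from 9609295 to 13871592.

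Every group was labelled C57BL/6, and the mice were 3 to 5 months old and of both sexes. In each mouse 1 eye was operated 6 h before the other and both capsules were collected together, so the 0 h capsules are also operated capsules of animals with an injured fellow eye. The Egr1 allele carries a neo cassette that leads to an early stop, and was supplied on a mixed background. The floxed Fosb allele was deleted by MLR10cre, a transgene driven by a modified promoter of the alpha crystallin gene Cryaa. It was first held in FVB/N mice and then repeatedly backcrossed to C57BL/6 mice, as the study's methods state. Counts over the whole gene include exons that these alleles keep. Egr1 had 28890 to 45091 counts in the Egr1KO libraries at 6 h PCS against 15087 to 21706 in WT, and Fosb had 16544 to 20682 counts in FosBcKO against 8045 to 16326 in WT. These counts therefore check nothing about the genotype labels.

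Crystallins are the soluble proteins that fill lens fiber cells and give the lens its refractive index. Gamma crystallins are small monomeric members of the family that pack densely in the fiber cells of the lens core. They are switched on as epithelial cells at the lens equator differentiate into fibers, and they serve as markers of that step. Crygs encodes gamma S crystallin, which accumulates later than the others in the cortical fibers and is also made in the epithelium, while inherited changes in Crygc, Crygd and Crygs cause cataract. In the RefSeq table (GRCm38.p6) Cryge, Crygd, Crygc, Crygb and Cryga follow one another on chromosome 1, with the pseudogene Gm7329 between Crygb and Cryga, and Crygs lies alone on chromosome 16.

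The family was uneven in read pairs. Levels are given as CPM, counts scaled to a library of 1000000 pairs, with TMM (trimmed mean of M values) factors over all 18 libraries. They are not divided by gene length, so they do not rank the genes by transcript number. Crygs held 85.1% to 96.5% of the gamma crystallin read pairs in the 9 libraries at 0 h and 91.6% to 99.9% in the 9 at 6 h PCS. Crygb, Crygc and Crygd together held 3.47% to 14.8% at 0 h and 0.109% to 8.27% at 6 h PCS. Cryga and Cryge stood close to no counts. Several of these genes are close copies of each other, and read pairs aligned to more than 1 place, 3.80% to 5.41% of all pairs per library, were left out of the counts. The share lost for each member was not measured here, so the levels of single members are uncertain.

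Crygs, the member of the cortical fibers and the epithelium, had 5443, 5895 and 4936 CPM in WT replicates 1 to 3 at 0 h, a mean of 5424 ± 479.7 (SD, n = 3). At 6 h PCS the same genotype had 1362, 1914 and 356 CPM, a mean of 1211 ± 790.1 (SD, n = 3). All 3 libraries at 6 h PCS lay below all 3 at 0 h, and replicate 3 at 6 h PCS lay well below the other two. In Egr1KO, Crygs had 5264, 4724 and 6539.7 CPM at 0 h and 1527, 1212 and 1445 CPM at 6 h PCS. In FosBcKO it had 4584, 4076 and 5895 CPM at 0 h and 682, 1333 and 1756 CPM at 6 h PCS. The times did not overlap in either knockout. The mean left at 6 h PCS was 22.3% of the 0 h mean in WT, 25.3% in Egr1KO and 25.9% in FosBcKO, which is 4.48-fold, 3.95-fold and 3.86-fold lower.

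Crygb, one of the fiber cell members of the chromosome 1 cluster, had 100.2, 99.4 and 135 CPM in WT at 0 h and 8.12, 0.399 and 10.4 CPM at 6 h PCS. In Egr1KO it had 145, 93.1 and 254 CPM at 0 h and 3.31, 9.09 and 0 CPM at 6 h PCS. Both genotypes separated the times, and replicate 3 of Egr1KO at 6 h PCS held no Crygb count at all. In FosBcKO it had 284, 63.2 and 468 CPM at 0 h and 2.52, 15.2 and 70.5 CPM at 6 h PCS. Here the times overlapped, because the highest library at 6 h PCS, replicate 3, lay above the lowest at 0 h, replicate 2. The means were 17.7-fold lower at 6 h PCS in WT, 39.7-fold lower in Egr1KO and 9.23-fold lower in FosBcKO.

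Crygc had 103, 107 and 117 CPM in WT at 0 h, the tightest of these groups, and 7.21, 0.698 and 6.00 CPM at 6 h PCS. In Egr1KO it had 144, 83.9 and 225 CPM at 0 h and 3.64, 7.78 and 0.624 CPM at 6 h PCS. In FosBcKO it had 209, 57.9 and 364 CPM at 0 h and 1.97, 11.1 and 53.5 CPM at 6 h PCS. The times did not overlap in any genotype, although in FosBcKO the lowest library at 0 h was only 1.08-fold above the highest at 6 h PCS. The means were 23.4-fold lower at 6 h PCS in WT, 37.6-fold in Egr1KO and 9.48-fold in FosBcKO.

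Crygd, a fiber cell member whose human counterpart is a known cataract gene, had 77.7, 70.1 and 102 CPM in WT at 0 h and 6.39, 0.997 and 8.91 CPM at 6 h PCS. In Egr1KO it had 114, 68.1 and 198 CPM at 0 h and 0.441, 4.87 and 1.25 CPM at 6 h PCS. In FosBcKO it had 139, 25.3 and 195 CPM at 0 h and 1.73, 7.74 and 34.5 CPM at 6 h PCS. The times separated in WT and Egr1KO and overlapped in FosBcKO, again through replicate 2 at 0 h and replicate 3 at 6 h PCS. The means were 15.3-fold, 57.9-fold and 8.18-fold lower at 6 h PCS in WT, Egr1KO and FosBcKO.

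**Figure D1:**
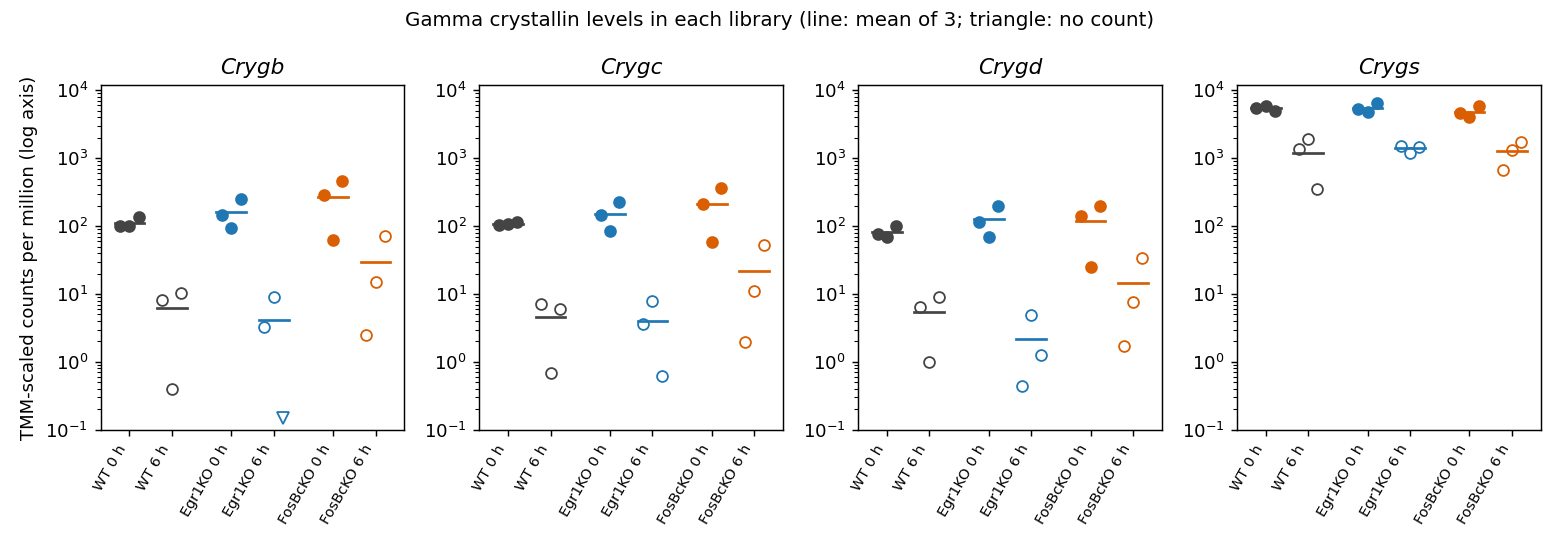
TMM-scaled CPM of Crygb, Crygc, Crygd and Crygs on a log axis in each of the 18 libraries, filled at 0 h and open at 6 h PCS, with a line at the mean of 3 and a triangle at the lower edge for the library with no count. Crygs stayed at 356 CPM or above in every library, while Crygb, Crygc and Crygd lay at 10.4 CPM or below in the WT and Egr1KO libraries at 6 h PCS.

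Cryge and Cryga gave too few counts to follow. Cryge had 9, 3 and 2 counts in WT at 0 h and 0, 3 and 0 at 6 h PCS, and 3, 4 and 2 counts in Egr1KO at 0 h and 0, 14 and 0 at 6 h PCS. FosBcKO held its highest counts, with 16, 0 and 76 at 0 h and 1, 3 and 19 at 6 h PCS. Replicate 3 was the highest at both times, as it was for Crygb, Crygc, Crygd and Crygs. Cryga, the last gene of the cluster, had 0, 1 and 2 counts in WT at 0 h and none at 6 h PCS. It had 6, 0 and 1 counts in FosBcKO at 0 h and 0, 0 and 6 at 6 h PCS, and no count in the 6 Egr1KO libraries. A library with no count still allows a mean of up to 3 counts, by counting error alone, so no fold change is given for Cryga.

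The members also differed in the size of the fall, as a description. The log2 fold change at 6 h against 0 h from edgeR's quasi-likelihood fit was -2.20 ± 0.55 (SE) for Crygs in WT, against -4.16 ± 0.81 for Crygb, -4.57 ± 0.60 for Crygc and -3.95 ± 0.60 for Crygd. In Egr1KO it was -1.99 ± 0.18 for Crygs, against -5.25 ± 0.96, -5.19 ± 0.73 and -5.75 ± 0.74 for the other three in the same order. In FosBcKO it was -1.93 ± 0.32 for Crygs, against -3.19 ± 1.41, -3.23 ± 1.37 and -3.01 ± 1.32. The standard errors of Crygb, Crygc and Crygd were thus widest in FosBcKO, and that of Crygs in WT. Single libraries moved these values. In FosBcKO those of Crygb, Crygc and Crygd were -5.00, -5.07 and -4.73 without replicate 3 at 6 h PCS, and the smallest falls over the alternatives were -2.60 and -2.63 for Crygb and Crygc without replicate 3 at 0 h and -2.53 for Crygd without replicate 1 at 6 h PCS. In Egr1KO they were -6.65, -6.16 and -7.19 without replicate 2 at 6 h PCS, and the smallest were -4.71 and -4.71 for Crygb and Crygc without replicate 3 at 6 h PCS and -5.32 for Crygd without replicate 1 at that time. In WT they ranged from -4.71 to -3.63, -5.01 to -4.08 and -4.50 to -3.48, with the smallest falls without replicate 2 at 6 h PCS and the largest without replicate 3 for Crygb and Crygd and replicate 1 for Crygc, both at 6 h PCS. For Crygs in WT the range was -2.70 without replicate 2 to -1.76 without replicate 3 at 6 h PCS. No alternative gave a rise for a member that passed the filter on low counts in the main fit of that genotype. Cryge did not pass it in Egr1KO, where its mean was 0.284 CPM at 0 h and 0.339 CPM at 6 h PCS. Cryge passed the filter on low counts in FosBcKO alone, with -2.18 ± 1.49, and ranged from -4.09 without replicate 3 at 6 h PCS to -0.18 without replicate 3 at 0 h, and Cryga passed it in no genotype. Because Crygs held most of the pairs, the summed level of the 6 members followed it and was 4.67-fold lower in WT, 4.23-fold in Egr1KO and 4.12-fold in FosBcKO.

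**Figure D2:**
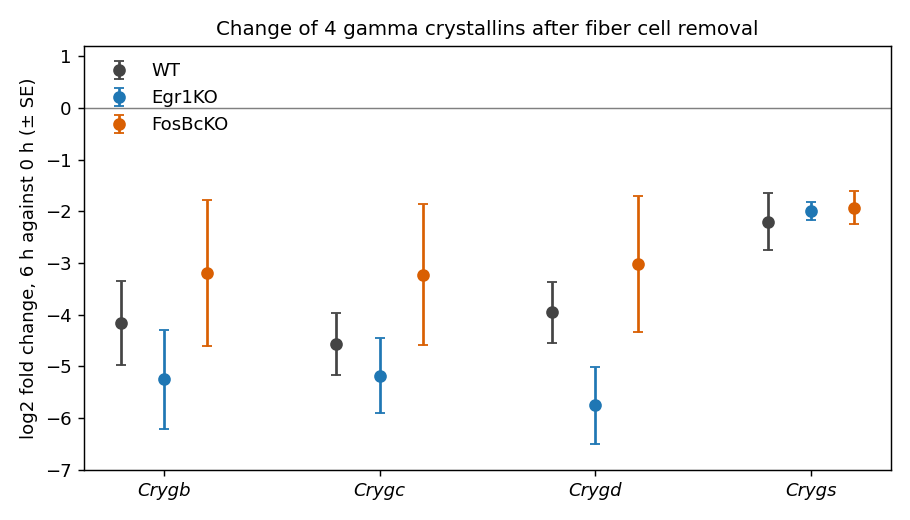
Log2 fold change at 6 h against 0 h with its SE for 4 gamma crystallins in WT, Egr1KO and FosBcKO (6 libraries each). Crygs lies near -2 in every genotype, and Crygb, Crygc and Crygd lie between -3.01 and -5.75.

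In WT all 4 members that passed the filter had their 3 libraries at 6 h PCS below all 3 at 0 h. The same pattern held for 22.3% of the 15440 genes tested in WT. In Egr1KO it was also all 4 that passed, against 21.6% of 14586 genes. In FosBcKO it was 2 of the 5 that passed, Crygc and Crygs, against 21% of 15475 genes. It was 4 there without replicate 2 at 0 h or without replicate 3 at 6 h PCS. The share of all genes was not counted with 1 library left out. The family was chosen on this fall, so nothing is read from these counts. Read pairs that matched no annotated feature made up more of the libraries at 6 h PCS. In WT they were 15.2% to 19.8% at 0 h and 23.6% to 27.4% at 6 h PCS. The values were 9.09% to 13.5% and 20.0% to 24.0% in Egr1KO, and 8.03% to 20.9% and 23.4% to 30.5% in FosBcKO. The part of this rise in the gamma crystallin levels was not tested. In whole capsules, fewer fiber cells and less gamma crystallin RNA per cell cannot be told apart.

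Within a library the share of gamma crystallin pairs does not depend on the scaling. In WT the pairs of Crygb, Crygc and Crygd together made up 4.90%, 4.47% and 6.68% of gamma crystallin pairs at 0 h and 1.57%, 0.109% and 6.64% at 6 h PCS. The times overlapped, because WT replicate 3 at 6 h PCS, with the lowest Crygs of the 18 libraries, kept a share like those at 0 h. WT replicate 2 at 6 h PCS was its opposite, with the highest Crygs of its group and 21 pairs of the 3 genes in all. In Egr1KO the share was 7.10%, 4.93% and 9.38% at 0 h and 0.481%, 1.76% and 0.129% at 6 h PCS, with no overlap. In FosBcKO it was 12.1%, 3.47% and 14.8% at 0 h and 0.904%, 2.49% and 8.27% at 6 h PCS. FosBcKO thus held both the lowest and the highest share of the 9 libraries at 0 h.

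The members also varied among replicates of a group. At 0 h the highest library exceeded the lowest 1.36-fold for Crygb in WT, 2.73-fold in Egr1KO and 7.40-fold in FosBcKO, while for Crygs these spans were 1.19-fold, 1.38-fold and 1.45-fold. At 6 h PCS the span of Crygc was 10.3-fold, 12.5-fold and 27.2-fold. Crygb, Crygc and Crygd ranked the 3 libraries in the same order in 3 of the 6 groups, and Crygs ranked them as Crygc did in 3 of the 6. In FosBcKO all 4 ranked the libraries alike at both times, with replicate 3 the highest. FosBcKO replicate 2 at 0 h, the lowest in all 4, also had 20.9% of its read pairs matching no annotated feature. Replicates 1 and 3 had 10.5% and 8.03%, and the WT libraries at 0 h had 19.8%, 18.5% and 15.2%. By this measure replicate 2 was like the WT libraries and the other two were not. The part of that difference in the crystallin levels was not tested.

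To find whether loss of Egr1 or Fosb altered gamma crystallin expression, edgeR's exact test was run for either knockout against WT, separately at 0 h and 6 h PCS. A gene was called where it changed over 2-fold with an adjusted p (Benjamini-Hochberg, over all genes tested) of 0.05 or less. Fold changes are those of the exact test, and standard errors are those of the quasi-likelihood fit, whose own fold changes differ slightly. Crygb, Crygc, Crygd and Crygs passed the filter on low counts in each of these comparisons, and Cryga and Cryge in none.

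In Egr1KO at 0 h the log2 fold changes against WT were 0.53 ± 0.42 for Crygb, 0.45 ± 0.38 for Crygc, 0.58 ± 0.45 for Crygd and -0.00 ± 0.11 for Crygs. None of the 4 was called by the exact test (edgeR, adjusted p between 0.957 and 1), while 0.41% of 14373 genes were, and none had an unadjusted p under 0.05. At 6 h PCS the values were -0.59 ± 1.27 for Crygb, -0.18 ± 0.93 for Crygc, -1.27 ± 0.93 for Crygd and 0.23 ± 0.53 for Crygs. Again 0 of the 4 were called (edgeR exact test, adjusted p between 0.753 and 0.987), against 0.736% of 15618 genes, and 0 had an unadjusted p under 0.05. The quasi-likelihood F-test and DESeq2 called 0 of the 4 at either time. Crygs thus had a narrow error at 0 h, while at 6 h PCS 1 SE of Crygb, Crygc and Crygd was close to a change of 2-fold.

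In FosBcKO at 0 h the 3 genes of the cluster had higher means and the widest spread. The log2 fold changes against WT were 1.28 ± 0.78 for Crygb, 0.95 ± 0.71 for Crygc, 0.52 ± 0.79 for Crygd and -0.17 ± 0.13 for Crygs. The exact test called 0 of the 4 (edgeR, adjusted p of 1 for each, 0 with an unadjusted p under 0.05), as did the quasi-likelihood F-test and DESeq2, while 0.295% of 14556 genes were called. This rested on FosBcKO replicate 2, the lowest library in all 4. Without it, 3 members were called higher than WT by the exact test with 2 FosBcKO libraries, Crygb by 1.75 (edgeR, adjusted p = 9.8e-07), Crygc by 1.39 (adjusted p = 5.66e-05) and Cryge, which then passed the filter, by 3.33 (adjusted p = 0.0318) on the log2 scale. Crygd had 1.00 with an adjusted p of 0.0049 and missed the 2-fold minimum, and Crygs had -0.06. The share of all genes called rose as well without that library, to 0.918% of 15142 genes. Over the 16 alternatives Crygb was called in 1. Its log2 fold change ranged from 0.65 to 1.75 and its adjusted p from 9.8e-07 to 1. Leaving out the lowest library raises a mean in itself, so nothing is read from these calls.

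In FosBcKO at 6 h PCS the log2 fold changes against WT were 2.31 ± 1.15 for Crygb, 2.35 ± 1.07 for Crygc, 1.52 ± 0.99 for Crygd and 0.13 ± 0.58 for Crygs. The exact test called 0 of the 4, with adjusted p (edgeR) of 0.300, 0.223, 0.494 and 0.972 in that order, against 5.41% of 16155 genes called. Before adjustment Crygb and Crygc had an exact test p of 0.0487 and 0.0291. An unadjusted exact test p under 0.05 was found for 2664 of the 16155 genes, so nothing is read from these 2 values. The quasi-likelihood F-test and DESeq2 called 0 of the 4. The highest FosBcKO library, replicate 3, exceeded all 3 WT libraries in Crygb, Crygc and Crygd, and the lowest, replicate 1, lay below 2 of them. Without that lowest library Crygc was called, with a log2 fold change of 2.89 (edgeR exact test, adjusted p = 0.015, against 0.015 to 0.948 over the 16 alternatives), and 7.25% of 16627 genes were called.

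**Figure D3:**
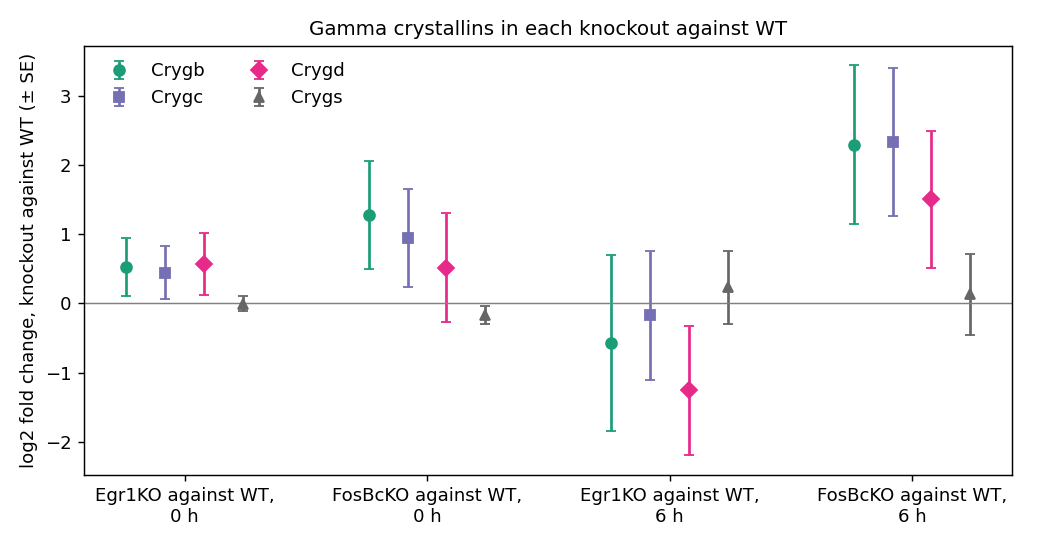
Log2 fold change with its SE of 4 gamma crystallins in each knockout against WT at 0 h and 6 h PCS (3 against 3 libraries), both from the quasi-likelihood fit, whose fold changes differ slightly from those of the exact test. Crygs lies within 0.23 of 0 throughout, and the largest values are those of Crygb and Crygc in FosBcKO at 6 h PCS, 2.30 and 2.34, with wide errors.

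Whether the fall itself differed between genotypes was tested as an interaction over all 18 libraries by edgeR's quasi-likelihood F-test, in which 5 members passed the filter. For Egr1KO the difference of log2 fold changes from WT was -1.12 ± 1.66 for Crygb, -0.64 ± 1.47 for Crygc, -1.82 ± 1.47 for Crygd and 0.18 ± 0.59 for Crygs. For FosBcKO it was 0.92 ± 1.59, 1.29 ± 1.41, 0.89 ± 1.37 and 0.22 ± 0.59. Cryge had 2.44 ± 2.37 in Egr1KO and -0.12 in FosBcKO, both on too few counts to be read. None of the 5 members was called for either knockout (edgeR, adjusted p between 0.844 and 1), and 0% and 0% of 17469 genes were called for Egr1KO and FosBcKO, with 1141 and 1171 genes at an unadjusted p under 0.05. DESeq2 called 0 of the 5 for either knockout, and 2 and 29 genes in all. For Crygb, Crygc and Crygd, the larger fold of Egr1KO and the smaller fold of FosBcKO were therefore not shown to differ from WT beyond the spread between replicates.

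The make-up of the Crygb, Crygc and Crygd pairs was examined as a quantity that does not depend on the scaling of a library. It can still shift where a library held few of these pairs. At 0 h Crygb made up 35.7%, 36.0% and 38.1% of these pairs in WT, 36.1%, 38.0% and 37.5% in Egr1KO, and 44.9%, 43.2% and 45.5% in FosBcKO. Crygd made up 27.7%, 25.4% and 28.8% in WT, 28.2%, 27.8% and 29.2% in Egr1KO, and 22.0%, 17.3% and 19.0% in FosBcKO. Crygc held 33.0% to 38.6% in WT and 33.1% to 39.6% in FosBcKO. The FosBcKO libraries thus stood apart from all 6 others in both Crygb and Crygd, and overlapped with WT in Crygc, while the summed level of the 3 genes in FosBcKO ran from 146 to 1027 CPM. Gene counts do not show which alleles of these close copies a mouse line carries, so a difference in alleles or their alignment and a difference in expression cannot be told apart here. The mean share of Crygb was 7.92 percentage points higher in FosBcKO than in WT, and that of Crygd was lower by a difference of -7.90 points. Each had an exact permutation p of 0.10, two-sided, the smallest that 3 against 3 libraries allow, and 0.40 after Benjamini-Hochberg adjustment over 12 such comparisons. This comparison was chosen after the shares had been seen.

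At 6 h PCS few pairs remained, and the shares carried wide counting errors. In FosBcKO, Crygd made up 27.8% (95% Wilson interval 19.2% to 38.6%), 22.7% (18.8% to 27.2%) and 21.7% (19.9% to 23.7%) of the 3 genes. In WT it made up 29.4% (24.0% to 35.5%), 47.6% (28.3% to 67.6%) and 35.2% (30.0% to 40.7%), so the libraries of the 2 genotypes again did not overlap (exact permutation p = 0.10). The Crygb share overlapped at this time (exact permutation p = 0.20). The Egr1KO libraries scattered most, with Crygd at 4 of 67 pairs in replicate 1, 67 of 299 in replicate 2 and 12 of 18 in replicate 3. PCR copies of 1 molecule are counted separately here, so these intervals cover counting error only.

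**Figure D4:**
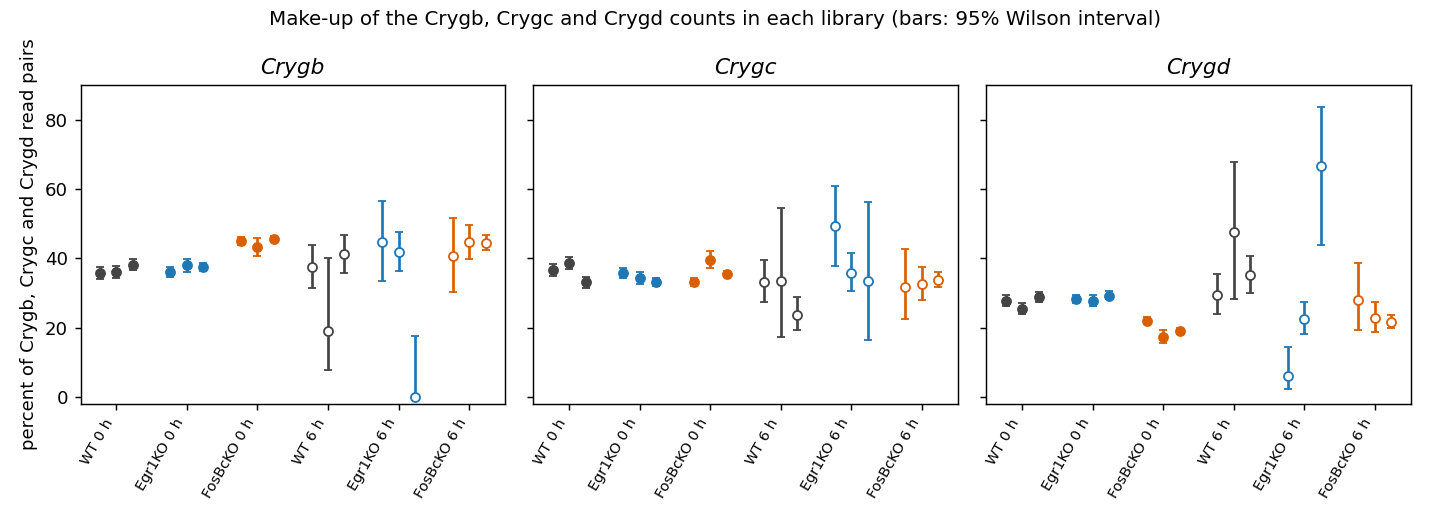
Percent of the Crygb, Crygc and Crygd read pairs that belongs to each gene, per library, with 95% Wilson intervals, filled at 0 h and open at 6 h PCS. At 0 h the FosBcKO libraries lie at 43.2% to 45.5% in Crygb and 17.3% to 22.0% in Crygd, apart from the other 6 libraries, and at 6 h PCS the intervals widen.

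Gene names were at hand for 7024 of the 55416 IDs. The pairs of ID and symbol come from ranked comparison tables, so genes that changed are over-represented among them, and the values of the other genes named below describe those genes and not their families. The alpha and beta crystallins are not analysed here. Crygf, the remaining gene of the A to F series, had 25, 6 and 8 counts in WT at 0 h and none in WT at 6 h PCS. It had 23, 12 and 13 counts in Egr1KO at 0 h and 0, 2 and 0 at 6 h PCS. In FosBcKO it had 14, 8 and 91 counts at 0 h and 3, 0 and 57 at 6 h PCS, with replicate 3 the highest at both times as for the members.

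Values are given for 3 other fiber cell genes, Lgsn, Lctl and Birc7. Lgsn, which encodes the fiber cell protein lengsin, had 158, 217 and 331 CPM in WT at 0 h and 24.2, 15.9 and 19.1 CPM at 6 h PCS. Its mean was 11.9-fold lower at 6 h PCS in WT, 12.2-fold in Egr1KO and 8.10-fold in FosBcKO, with no overlap of times in any genotype. Lctl, a klotho-like fiber cell gene, was 5.39-fold, 2.62-fold and 3.32-fold lower. Birc7, an inhibitor of apoptosis expressed in fibers, was 4.70-fold, 14.1-fold and 10.7-fold lower on few counts. Both were without overlap. Such separation downward held for 22.3%, 21.6% and 21% of the genes tested in WT, Egr1KO and FosBcKO. Across the 18 libraries, Lgsn was the gene whose log2 CPM followed the mean of the 6 members most closely, with Pearson's r of 0.959 among 9714 genes with an average log2 CPM of at least 3. ENSMUSG00000020457 followed with 0.917 and Ska2, a spindle and kinetochore gene, with 0.913. The libraries share their groups of time and their scaling, so these values describe likeness alone. The members themselves had r of 0.972 for Crygb, 0.988 for Crygc, 0.968 for Crygd, 0.794 for Crygs, 0.648 for Cryge and 0.513 for Cryga with that mean.

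Of 7 transcription factors known at gamma crystallin promoters, 4 had a name. Sox1 and Prox1 are needed for fiber cell elongation and gamma crystallin expression, Sox2 activates crystallin genes, and Pax6 is the lens determination factor that represses some crystallin promoters. Sox1 was 4.10-fold lower at 6 h PCS in WT, 2.55-fold in Egr1KO and 2.64-fold in FosBcKO. Sox2 was 3.19-fold, 2.22-fold and 2.64-fold lower, and Prox1 was 2.78-fold, 2.18-fold and 1.99-fold lower. None of these overlapped between times in any genotype. The share of all genes tested that separated downward was 22.3% in WT, 21.6% in Egr1KO and 21% in FosBcKO. Pax6 was 2.01-fold lower in WT with no overlap, and 1.32-fold and 1.21-fold lower in Egr1KO and FosBcKO with overlap.

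Markers of other cells moved with time as well. Of the LEC markers, 4 of 7 had a name. Foxe3, the factor that defines the lens epithelium, was 1.30-fold lower at 6 h PCS in WT, 1.21-fold in Egr1KO and 1.55-fold in FosBcKO, with overlap in WT and Egr1KO. Gja1, the connexin of LECs, was 1.17-fold, 1.71-fold and 1.28-fold higher, with overlap in each. Aldh1a1, a retinaldehyde dehydrogenase abundant in LECs, was 1.75-fold, 1.83-fold and 2.08-fold lower without overlap in any genotype. The summed level of the 4 LEC markers, Pax6 included, was 2267 to 2380 CPM at 0 h and 996 to 1941 CPM at 6 h PCS in WT, 2434 to 2693 and 1891 to 2170 CPM in Egr1KO, and 2439 to 2929.9 and 1446 to 2243 CPM in FosBcKO. The sum was lower at 6 h PCS without overlap in each genotype. Aldh1a1 held 1271 of its mean of 2339 CPM in WT at 0 h, and Gja1 had higher means at 6 h PCS. RNA of the 4 markers was thus found at both times. Which cells this RNA came from was not tested.

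Among markers of cells outside the lens, those of photoreceptors and red blood cells were higher at 6 h PCS in every genotype, and the other lists were mixed. The photoreceptor markers Sag, Pdc and Pde6b, 3 of 5 with a name, summed to 141 to 394 CPM at 0 h and 1770.4 to 3879 CPM at 6 h PCS in WT, to 156 to 348 and 942 to 2760.5 CPM in Egr1KO, and to 119 to 435 and 725 to 1771 CPM in FosBcKO. All 3 were higher without overlap in every genotype, as were all 4 hemoglobin genes, whose mean sum was 4.92 CPM at 0 h and 100.8 CPM at 6 h PCS in WT, 1.59 and 230.4 CPM in Egr1KO, and 23.4 and 172 CPM in FosBcKO. The FosBcKO mean at 0 h rested on replicate 2, which held 64.2 CPM against 4.81 and 1.11 CPM in the other two. The same separation upward held for 26.4%, 21.3% and 22.9% of the genes tested in WT, Egr1KO and FosBcKO. Pigmented iris and ciliary body markers, 4 of 5 with a name, were higher without overlap for 0 of 4 in WT, 4 in Egr1KO and 3 in FosBcKO. Leukocyte markers, 4 of 5 with a name, were so for 0, 2 and 4, with sums of at most 30.0, 106 and 70.5 CPM at either time. Both named cornea markers of 3, Krt12 and Krt5, overlapped between times in each genotype. The part of these cells in the lower gamma crystallin levels was not tested.

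**Figure D5:**
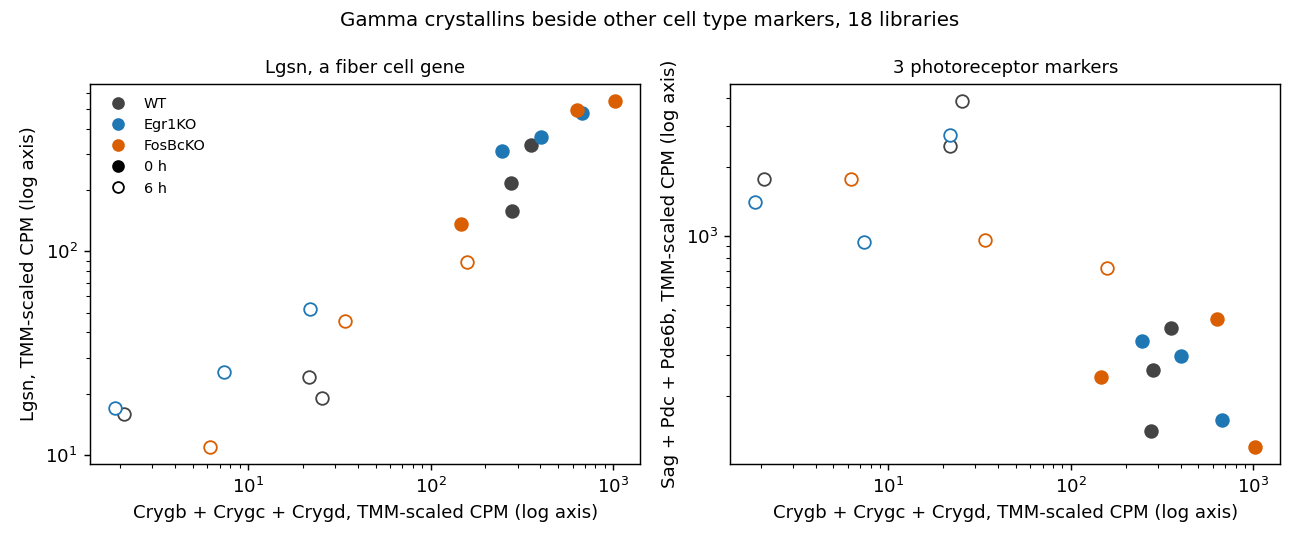
Summed CPM of Crygb, Crygc and Crygd in the 18 libraries (log axis) against the CPM of Lgsn (left) and the summed CPM of 3 photoreceptor markers (right, log axes), coloured by genotype, filled at 0 h and open at 6 h PCS. Every 6 h library holds at most 88.9 CPM of Lgsn and at least 725 CPM of photoreceptor markers, while FosBcKO replicate 3 at 6 h PCS reaches the lowest 0 h level of the 3 crystallins.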

How the data were processed

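RNA of lens capsules was sequenced in 18 libraries, grouped by the sample labels. Libraries were stranded and ribodepleted, and the authors aligned the read pairs with HISAT2 and assigned them to Ensembl genes with HTSeq (union mode). The build is GRCm39 in the submitters' processing notes and GRCm38 in the study's methods, so no coordinates are given. The deposited values are raw counts per gene. Library sizes exclude HTSeq's summary lines, which belong to no gene. Pairs that HTSeq assigned to no feature made up 8.03% to 30.5% of each library. Whether these pairs lay inside or outside genes was not measured.

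Counts were filtered with filterByExpr, scaled by TMM and fitted in edgeR 4.0.16 (R 4.3.3) with robust dispersions: 6 libraries per contrast, all 18 for the interaction. Time used the quasi-likelihood F-test, knockout against WT the exact test. DESeq2 1.42.0, other scalings, filters and fits, a replicate block and leaving out each library were alternatives. Exact permutations used SciPy 1.17.1. Fits were tested on simulated counts. No library pair of 153 held identical tables.

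The members and gene lists were chosen with earlier results of these data known. The genes named are the members, the targeted genes, the named genes of fixed lists and those most correlated with the members' mean. Deviations of same-numbered libraries from their group means correlated at 0.102 to 0.247 for WT across times, above 0.1 in 3 of 3 pairs, and above 0.1 in 1 of 3 pairs for Egr1KO and 2 of 3 for FosBcKO. No label states what the numbers share. A gene of the fiber cell list is not reported here.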

Additional observations from a re-analysis of the deposited data

How the results depend on the processing

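The fall of the summed level at 6 h PCS kept its direction under every scaling and without any 1 library, with reported values of -2.51, -2.07 and -2.13 on the log2 scale in WT, Egr1KO and FosBcKO. The family was chosen on this fall in the same libraries, so the kept direction is a description and no test. Pairing libraries by number (replicate block) cannot move this mean with 3 against 3 libraries, so it tests nothing there. Members lower without overlap ranged from 2 to 4 in FosBcKO when 1 library was left out, and from 4 to 5 in WT and Egr1KO. The added member in WT and Egr1KO was Cryga or Cryge, on few counts. The share of all genes was not counted with 1 library left out. Fewer libraries separate more easily, so the shares given for 3 against 3 do not serve and nothing is read from these counts. With 1 library left out, members called in FosBcKO against WT ranged from 0 to 3 at 0 h and from 0 to 1 at 6 h PCS. With no filter on low counts, 1 member was called in the interaction for Egr1KO, Crygd at -1.78 (edgeR, adjusted p = 4.69e-05), and 1 for FosBcKO, Crygc at 1.30 (adjusted p = 0.00319). These fits called 0.75% and 1.15% of 35202 genes. The 2 values hardly moved from the -1.82 and 1.29 of the filtered fit. Their SEs, 0.33 and 0.30, were far smaller than in the filtered fit. The calls thus came with a smaller error and not with a larger difference. The cause of the smaller error was not tested. The replicate block called 0 members against WT and 0 in the interactions. Genes called in all, 59, 115, 43 and 874 for Egr1KO at 0 h and 6 h PCS and FosBcKO at 0 h and 6 h PCS, ranged over the alternatives from 2 to 89, 0 to 946, 6 to 139 and 86 to 1205, and the 0 and 0 of the interactions reached 264 and 406. Counts at 6 h PCS, as low as 18 pairs for Crygb, Crygc and Crygd together, limit the comparisons of these 3 genes at that time, and those of Crygs, with 4273 to 21103 counts per library, less so.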
